A study of Mus musculus with 4 samples.

Results

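The genes described here are 7 subunits of the GABA-A receptor, chosen by name: the alpha subunits Gabra2, Gabra3, Gabra4 and Gabra5, the beta subunits Gabrb1 and Gabrb2, and the gamma subunit Gabrg3, out of 33696 genes in the deposited matrices. Their transcripts were counted in single nuclei of mouse brain 21 days after photothrombotic (PT) injury (21 dpi), a focal cortical lesion made by light activation of an injected dye. Each genotype gave 1 library, holding nuclei pooled from 1 male and 1 female mouse, and nuclei of the dissected lesion and of the perilesional parenchyma carried separate multiplexing tags and were combined at 75% and 25% before capture. The library labelled control came from mice described as wild type, and the library labelled Cxcl12-cKO from Col1a2(creER); Cxcl12(flox) mice, in which a tamoxifen-inducible Cre acts in cells of the Col1a2 lineage, mainly fibroblasts, so that the neurons and glia examined here are not the cells targeted for deletion. PT injury and the time point were shared by both groups, and the age of these mice is not given in the labels used here.

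GABA-A receptors are pentameric chloride channels, usually of alpha and beta subunits with a gamma or another partner, and they carry most fast inhibition in the forebrain. The alpha subunit sets much of a receptor's sensitivity to GABA and to drugs such as benzodiazepines, and it bears on whether the receptor sits at synapses, as alpha2 and alpha3 often do, or outside them, as alpha4 and alpha5 often do. Gamma3 is a less studied gamma subunit, and beta1 is found in astrocytes as well as in neurons.

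The 5′ ends of a pair of these genes are printed because they lie side by side in the genome. Lesional astrocyte-like nuclei nevertheless had more of one, Gabrb1, and less of the other, Gabra4, than every parenchymal neuron group. In parenchymal astrocyte-like nuclei of the library labelled control, Gabra4 was not under every neuron group. RefSeq windows from 250 bases before to 50 bases after a start site were found for all 7 genes, 11 windows in all. They are given in GRCm38.p6, whereas the counts were made on GRCm39. Gabrb1 has a window on the plus strand at chr5:71657671-71657970, printed here, and another at chr5:71699682-71699981. Which of these Gabrb1 starts the nuclei used was not tested. Gabra4 has its window on the minus strand at chr5:71658259-71658558. The start sites of the printed windows stand 387 bases apart, and from these starts the genes are read towards each other over that stretch. Their first bases from these starts therefore overlap on opposite strands. The sources used here do not say how the counting treated strand, and reads from that stretch cannot be told apart if strand was ignored. Both are shown 5′ to 3′ along their own gene, with each CG dinucleotide in capitals.
Gabrb1: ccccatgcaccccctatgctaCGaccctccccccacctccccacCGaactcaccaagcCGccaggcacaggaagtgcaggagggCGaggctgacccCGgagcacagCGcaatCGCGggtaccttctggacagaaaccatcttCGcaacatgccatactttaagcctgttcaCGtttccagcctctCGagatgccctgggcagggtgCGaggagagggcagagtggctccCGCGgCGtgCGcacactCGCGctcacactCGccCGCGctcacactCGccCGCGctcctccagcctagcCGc
Gabra4: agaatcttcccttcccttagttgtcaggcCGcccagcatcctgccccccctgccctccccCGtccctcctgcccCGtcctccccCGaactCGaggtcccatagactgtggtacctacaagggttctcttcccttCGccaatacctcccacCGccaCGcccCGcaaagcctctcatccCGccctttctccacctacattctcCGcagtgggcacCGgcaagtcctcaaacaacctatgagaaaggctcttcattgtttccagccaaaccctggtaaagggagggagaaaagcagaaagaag
The Gabrb1 window held 25 CG dinucleotides and had 66% G or C, and 18.4% of the 32851 RefSeq windows of this length held at least that many CGs. The Gabra4 window held 12, a number reached by 39.6% of windows, and had 58.7% G or C. The Gabrb1 window that is not printed held 9. Among the other windows, that of Gabra2, also on chromosome 5, held 25 CGs, the Gabra5 and Gabrg3 windows on chromosome 7 held 13 each, and the 3 Gabrb2 windows on chromosome 11 held 9 to 11. Both Gabra3 windows, on chromosome X, held 0, as did 5.43% of all windows. These are counts of letters only.

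Of 23489 barcodes, 21743 were kept, 8095 lesional and 2877 parenchymal nuclei in the library labelled control and 7933 and 2838 in the library labelled Cxcl12-cKO. Lesional nuclei were shallow, with a median of 2962 and 2975 unique molecular identifiers (UMIs, counted molecules) against 15915 and 16648 in parenchymal nuclei. Between 9.75% and 14.3% of nuclei carried UMIs of both Xist and Y-linked genes although each mouse has 1 sex, 47 barcodes occurred in both libraries, and neither doublets nor free RNA were removed beyond leaving out 2 mixed clusters. Cxcl12 in lesional fibroblast-like nuclei went against the label, at 106 CPM in the library labelled control against 217 CPM where the label is Cxcl12-cKO (CPM is the UMI count per 1000000 UMIs of the class). The part of the gene that the flox allele removes is not given in the labels used here, so this does not check the deletion. The tissue label was brain with perilesional cortex, and cortical neuron markers were present, but 339 nuclei had striatal projection markers.

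Neurons held most UMIs of all 7 genes, from 82.7% of the 105585 Gabrb1 UMIs to 98% of the 49009 Gabrb2 UMIs. Among parenchymal neurons, 8 groups were named from marker genes as upper-layer-like, middle-layer-like, layer 5 extratelencephalic-like, near-projecting-like, layer 6 corticothalamic-like, Pvalb and Sst interneuron-like, Adarb2 interneuron-like and striatal projection-like neurons. A further 3 excitatory groups stayed unnamed, neuron cluster 0 (led by Dnah14, Il1rapl2 and Deptor), neuron cluster 5 (Tshz2, Vwc2l and Slc17a6) and neuron cluster 13 (Ndst4 and Tfap2d). Levels are CPM with exact 95% Poisson intervals, given in the order library labelled control, library labelled Cxcl12-cKO. With 1 library per genotype no test was possible, and every interval covers counting error only. UMIs are not on a scale per length, so a level is compared between groups for 1 gene at a time.

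Gabra2 was highest in upper-layer-like neurons, at 509 CPM (495 to 524, n = 446 nuclei) and 578 CPM (563 to 593, n = 474 nuclei). Striatal projection-like neurons followed at 469 and 462 CPM. The low end was the layer 6 corticothalamic-like group, at 86.3 and 93 CPM. The span between the ends was 6.06-fold, and in both libraries the ends of the order lay far outside each other's intervals. In the middle of the order, the values of middle-layer-like, near-projecting-like, cluster 0 and Adarb2 interneuron-like neurons overlapped between neighbours once both libraries were counted.

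Gabra3 had another order. Near-projecting-like neurons stood highest at 153 CPM (129.6 to 179.5) and 133 CPM (111 to 158), and Pvalb and Sst interneuron-like nuclei followed at 127 CPM in both libraries. Adarb2 interneuron-like nuclei, the other large class of cortical interneurons, were lowest at 40.4 and 44 CPM, a level whose intervals overlapped those of striatal projection-like neurons at 51.4 and 42.1 CPM. The cortical interneuron classes thus stood near opposite ends of the Gabra3 order.

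Gabra4 was highest in striatal projection-like neurons, at 261 CPM (238 to 285) and 284 CPM (261 to 308). Upper-layer-like and middle-layer-like neurons came next, between 169 and 179.7 CPM over the 2 libraries, with overlapping intervals. Layer 5 extratelencephalic-like neurons were lowest at 90.5 and 87.1 CPM. Between them, 6 groups from cluster 0 to Pvalb and Sst interneuron-like nuclei formed a run in which the values of all neighbours overlapped.

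Gabra5, known from hippocampus and deep cortical layers, was highest in the layer 6 corticothalamic-like group taken whole, at 99.3 CPM (91.9 to 107) and 87.3 CPM (80.2 to 94.9). It was lowest in Pvalb and Sst interneuron-like nuclei at 22.9 and 23 CPM and in upper-layer-like neurons at 24.4 and 21.6 CPM, pairs whose intervals overlapped. Clustering at a finer resolution split the layer 6 group into a layer 6b-like cluster (led by Ccn2 and Cplx3) and a corticothalamic-like remainder. In the library labelled control, parenchymal Gabra5 was 181 CPM in the 107 layer 6b-like nuclei and 68.2 CPM in the 297 others. The corticothalamic-like remainder of the other library was at 63 CPM. Cluster 5, at 74.9 and 80.2 CPM, was above the remainder in both libraries. Without the layer 6b-like nuclei, the corticothalamic-like neurons therefore did not lead the Gabra5 order.

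Gabrb1 was highest in near-projecting-like neurons, at 1391 CPM (1318 to 1467) and 1165 CPM (1098 to 1236), and in layer 6 corticothalamic-like neurons, at 1105 and 1194 CPM. The order of these groups differed between the libraries. Striatal projection-like neurons were lowest at 507 and 509 CPM, and the whole span was 2.52-fold, narrower than for any alpha gene.

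Gabrb2 ran differently, with Adarb2 interneuron-like nuclei highest at 724 CPM (677 to 774) and 741 CPM (696 to 788). Cluster 5 and upper-layer-like neurons followed, from 501 to 552 CPM, with overlapping intervals. Near-projecting-like neurons, which had the highest Gabrb1 level in the library labelled control, were lowest for Gabrb2 there at 240.3 CPM and reached 346 CPM in the library labelled Cxcl12-cKO.

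Gabrg3 spanned 7.3-fold, more than any other of the 7 genes. It was highest in near-projecting-like neurons (2281 CPM, 2188 to 2377, and 1959 CPM, 1871 to 2050.3), Adarb2 interneuron-like nuclei (2242 and 1605 CPM) and striatal projection-like neurons (1952 and 1825 CPM). Pvalb and Sst interneuron-like nuclei held 1786 and 1618 CPM. The upper-layer-like and middle-layer-like groups were low, at 557 and 494 CPM and at 417 and 386 CPM, and cluster 5 was lowest at 289 and 292 CPM. The unnamed cluster 0 was at 897 and 859 CPM. Its middle-layer markers summed to 1836 CPM, against 1590.2 CPM in the middle-layer-like group, so the low level is not given for all middle-layer neurons. Taken whole, all 3 GABAergic groups lay above every excitatory group other than the near-projecting-like neurons in both libraries. At the finer resolution this did not hold throughout the Pvalb and Sst group. Its Sst-led cluster was at 951 and 635 CPM, against 951 and 791 CPM in layer 5 extratelencephalic-like neurons. Its Pvalb-led cluster was at 2652 and 2663 CPM, and its Nos1-led cluster at 1069 and 1273 CPM. The near-projecting-like group, first for Gabra3, Gabrb1 and Gabrg3, had 75 and 69 nuclei, and these 3 genes were led by other groups under several alternative groupings of the nuclei.

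**Figure D1:**
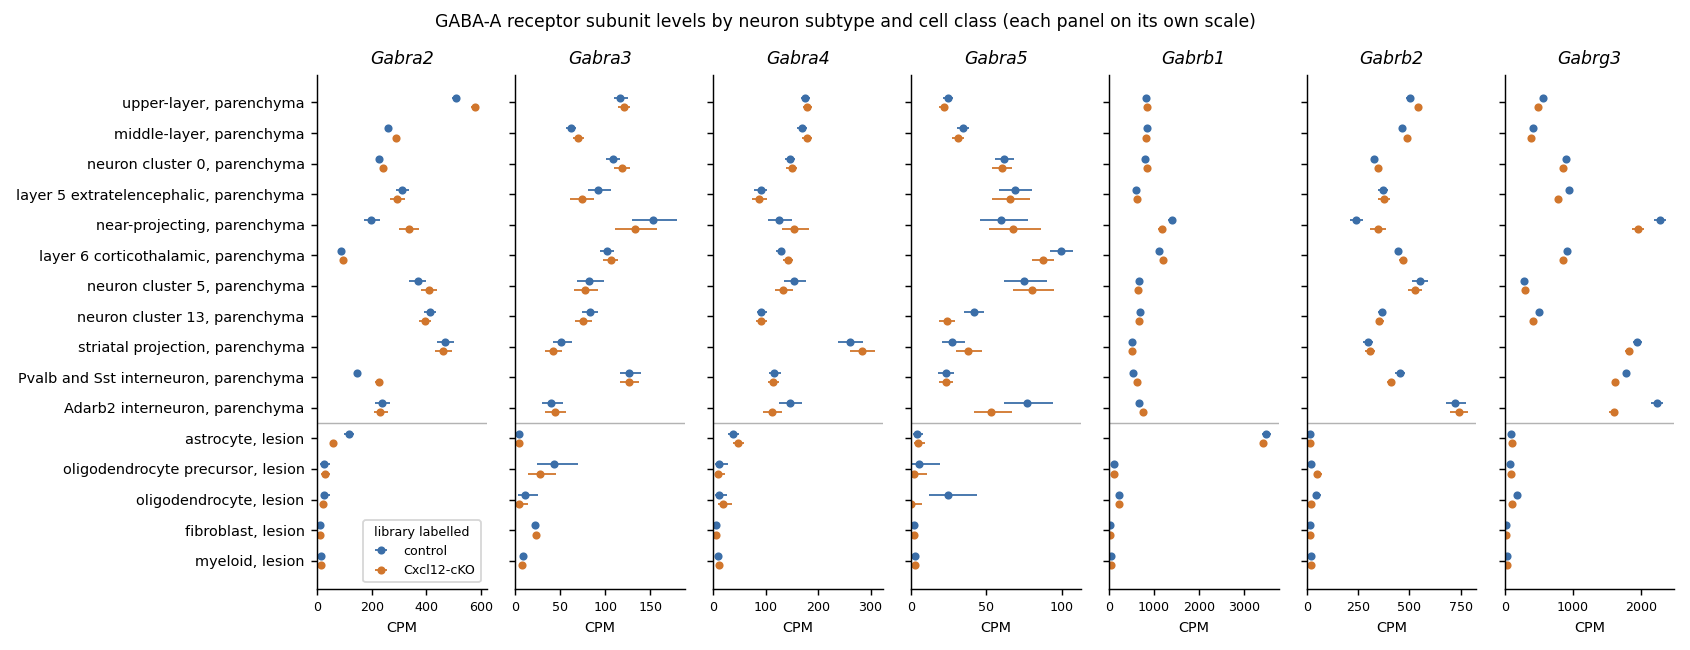
Levels in CPM (x axis, each panel on its own scale) of the 7 genes in parenchymal neuron groups and, under the grey line, in lesional glial and stromal classes, with 1 point per library and exact 95% Poisson intervals. Each gene has its own order of neuron groups, and Gabrb1 in astrocyte-like nuclei, at 3483 and 3416 CPM, lies right of all neuron groups.

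The share of nuclei with at least 1 UMI was taken at equal depth. After each parenchymal nucleus was thinned to 1000 UMIs, the share of nuclei with a Gabra2 UMI went from 7.7% in layer 6 corticothalamic-like neurons of the library labelled control to 41.1% in upper-layer-like neurons of the library labelled Cxcl12-cKO, against 54.7% and 99.2% unthinned. For Gabrg3 the thinned share reached 80.8% in near-projecting-like neurons of the library labelled control. Fibroblast-like and myeloid-like lesional nuclei, with medians of 2175 to 3109 UMIs, gave thinned shares of 0.215% to 4.57% over the 7 genes, the level against which free RNA has to be read. All 154 thinned shares in neuron groups (7 genes, 11 groups, 2 libraries) lay above the share of the same gene in lesional fibroblast-like nuclei of the same library.

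The makeup of each family was then compared between groups as the share of one gene in the UMIs of its family. These shares count UMIs, with no scale per length, so the same gene's share is compared between groups and the genes are not ranked by expression. Gabra2 took 61.6% (exact binomial interval 60.5% to 62.7%) and 64.2% (63.2% to 65.2%) in upper-layer-like neurons, where Gabra5 took 2.95% and 2.4%. Layer 6 corticothalamic-like neurons differed from these, with 20.7% and 21.7% Gabra2, 24.5% and 24.7% Gabra3, 31% and 33.2% Gabra4, and 23.9% and 20.4% Gabra5. That group includes the layer 6b-like nuclei, which had more Gabra5 than the remainder in the library labelled control. Pvalb and Sst interneuron-like nuclei had a high Gabra3 share, 30.7% and 25.8%, and Adarb2 interneuron-like nuclei a low one, 8.05% and 9.97%. For the beta pair, Gabrb1 held 85.3% and 77.1% in near-projecting-like neurons but 47.7% and 50.1% in Adarb2 interneuron-like nuclei, with the other groups between 53.9% and 71.9%.

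**Figure D2:**
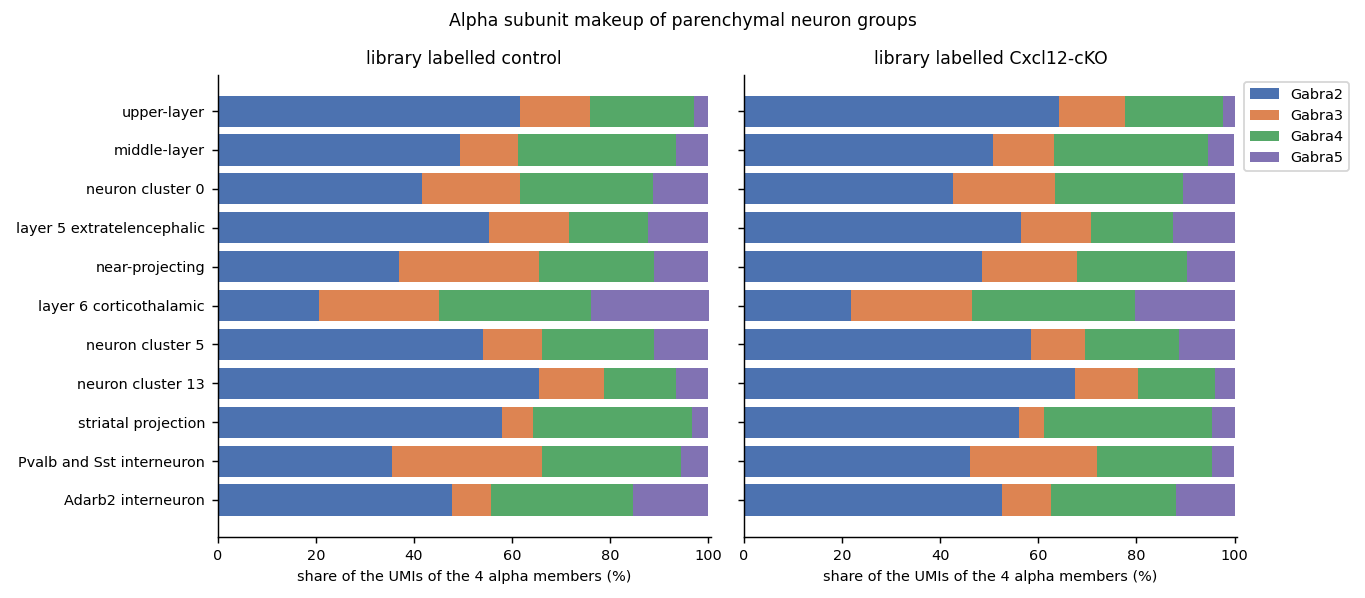
Share of each alpha gene in the UMIs of the 4 alpha genes (x axis, %) for each parenchymal neuron group (rows), 1 panel per library. The Gabra2 segment is 61.6% and 64.2% wide in upper-layer-like neurons and 20.7% and 21.7% in layer 6 corticothalamic-like neurons. Widths count UMIs and do not rank the genes by expression.

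Some groups were mixtures. The near-projecting-like neurons joined cluster 8 (led by Lcp1, Hmga2 and Myzap), with Gabra2 at 64.4 and 67.6 CPM, and the smaller cluster 2 (whose leading genes include Lypd1), with Gabra2 at 615 and 618 CPM. Gabra3 was 249 and 163 CPM in cluster 2, from 13 and 21 nuclei. In cluster 8 it was 122 and 105 CPM, under the 127 CPM of Pvalb and Sst interneuron-like nuclei. Gabrb1 was higher in cluster 8, at 1557 and 1428 CPM against 876 and 886 CPM. Gabrg3 was too, at 2559 and 2506 CPM against 1420.2 and 1378 CPM. At the finer resolution the Pvalb and Sst interneuron-like nuclei separated into a Pvalb-led cluster with 53.9 and 45.1 CPM of Gabra2, an Sst-led cluster with 145 and 218 CPM, and a Nos1-led cluster with 432 and 531 CPM. Gabra2 therefore differed several-fold between clusters within each of these groups, in the same order in both libraries.

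Among lesional glia, astrocyte-like nuclei carried Gabrb1 at 3483 CPM (3391 to 3576, n = 425 nuclei) and 3416 CPM (3336 to 3497, n = 454 nuclei), above every neuron group. A Gabrb1 UMI was seen in 94.1% (91.4% to 96.2%) and 96.7% (94.6% to 98.1%) of them, and in 87.1% and 89.3% after thinning. The fibroblast-like nuclei of the same lesions, at similar depth, gave 27.9 and 35 CPM and a Gabrb1 UMI in 8.75% and 10.8% of nuclei. Gabrb2 was at 15.2 and 14.8 CPM in astrocyte-like nuclei, far under its 724 and 741 CPM in Adarb2 interneuron-like nuclei. Lesional myeloid-like nuclei had 20.3 and 22.3 CPM of Gabrb2, so the astrocyte-like level is not told apart from free RNA. The Gabrb1 share of the beta UMIs was 99.6% in astrocyte-like nuclei of both libraries, above its share in every neuron group. Gabra4, whose start site adjoins that of Gabrb1 in the printed sequences, was at 38 CPM (29 to 48.9) and 47.8 CPM (38.8 to 58.3). Parenchymal astrocyte-like nuclei had 91.4 and 75.7 CPM of Gabra4, from 19 and 18 UMIs. The lowest neuron group, layer 5 extratelencephalic-like, had 90.5 and 87.1 CPM. The astrocyte-like log2 ratios of lesion over parenchyma were -1.29 (-2.03 to -0.44) and -0.69 (-1.40 to 0.15). Gabra3 and Gabra5 lay between 3.8 and 4.93 CPM and are not told apart from free RNA, since lesional myeloid-like nuclei had 8.01 to 8.91 CPM of Gabra3 and 2.72 to 2.9 CPM of Gabra5. The summed level of 7 excitatory neuron markers in these astrocyte-like nuclei was 116 and 127 CPM, against 1506 and 1413 CPM in parenchymal excitatory neurons. The 6 inhibitory neuron markers summed to 1645 and 1055 CPM, against 9311 and 9130.3 CPM in parenchymal interneurons, and 1628 and 1026 CPM of this was Erbb4, a neuregulin receptor gene. The defining GABAergic genes were at or near 0, with Gad1 at 8.87 and 7.89 CPM and Slc32a1 at 0 UMIs in both libraries. The 7 oligodendrocyte precursor markers summed to 3024 and 2580.5 CPM, mostly Lhfpl3 (1234 and 848 CPM) and Sox6 (1539.5 and 1557 CPM), whereas Pdgfra was at 20.9 and 13.3 CPM. The 7 astrocyte markers summed to 6178 and 7097 CPM, against 12751 and 12664 CPM in parenchymal astrocyte-like nuclei.

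Oligodendrocyte precursor-like nuclei held Gabrb1 at 116 and 107 CPM and Gabra3 at 43.3 CPM (24.7 to 70.2) and 27.3 CPM (14.9 to 45.8). Oligodendrocyte-like nuclei held Gabrb1 at 227 and 233 CPM, but 84.3% and 89.7% of these UMIs came from 5 nuclei. Such concentration in few nuclei of a class was also seen for Gabrg3, with 76.5% and 84.2% of the oligodendrocyte-like UMIs in 5 nuclei, and whether these nuclei are doublets was not tested. Lesional fibroblast-like nuclei had Gabra3 at 21.9 CPM (19.5 to 24.4) and 23.6 CPM (21.2 to 26.2), above the 8.91 CPM (6.45 to 12) and 8.01 CPM (6.05 to 10.4) of myeloid-like nuclei. For the other 6 genes the fibroblast-like level was the lower of the pair in both libraries.

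Gabra2 in astrocyte-like nuclei followed the cluster, whereas Gabrb1 did not. Glial cluster 4, led by the astrocyte genes Grin2c, Slc7a10 and Acsbg1, held 90% and 93.5% of the parenchymal but 13.2% and 3.96% of the lesional astrocyte-like nuclei. Its Gabra2 level was 252 CPM (185 to 335) and 364 CPM (289.7 to 452) in parenchyma and 512 CPM (417 to 623) and 394 CPM (266 to 562) in lesion. Glial cluster 3, led by A2m, Gfap and Aqp4, genes that rise in reactive astrocytes, held 40.9% and 65.4% of the lesional nuclei and had Gabra2 at 43.4 and 39.8 CPM. Glial cluster 2, led by C530044C16Rik and Cdh19, had 81.6 and 58.4 CPM. It held 45.9% and 30.6% of the lesional astrocyte-like nuclei. Its name is less sure, since the mean log2 ratio was 3.79 for astrocyte markers and 3.38 for oligodendrocyte precursor markers. Gabrb1 stayed between 3057 and 3702 CPM across the same clusters, regions and libraries. Over all astrocyte-like nuclei Gabra2 was 245 and 349 CPM in parenchyma and 116 and 57.2 CPM in lesion, with only 40 and 46 parenchymal nuclei. Clusters were made without the GABA-A receptor genes.

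**Figure D3:**
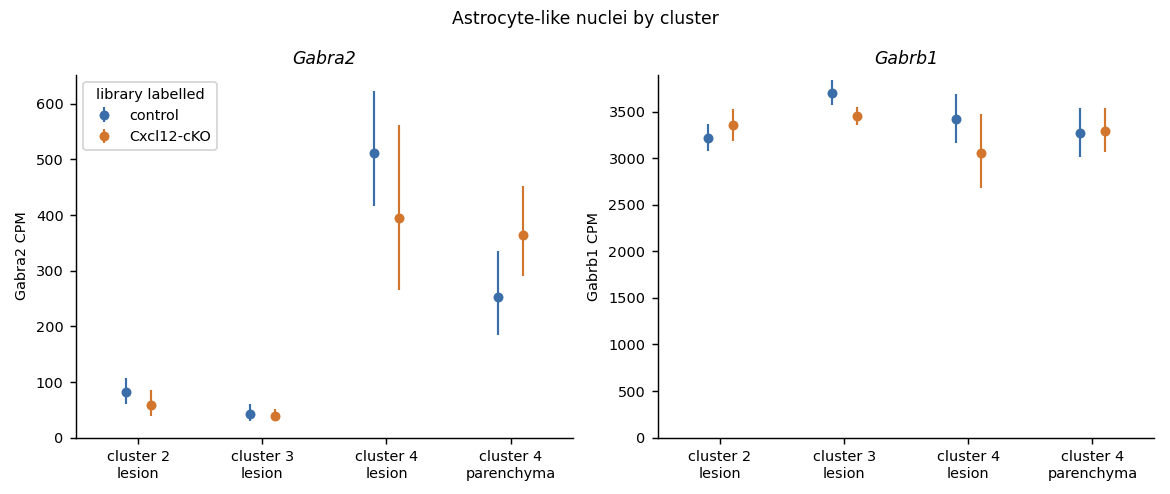
Gabra2 (left) and Gabrb1 (right) levels in CPM in the clusters of astrocyte-like nuclei, by region and library, with exact 95% Poisson intervals. Gabra2 is between 39.8 and 81.6 CPM in clusters 2 and 3 and between 252 and 512 CPM in cluster 4, while Gabrb1 ranges from 3057 to 3702 CPM.

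Lesion and parenchyma were compared within neuron groups of the same library. A gene was counted when its level differed by more than 1.5-fold in the same direction in both libraries. Layer 6 corticothalamic-like neurons alone had 50 nuclei or more in each region of each library, and there 1 of 7 genes, Gabrg3, was counted as higher and 0 as lower. Of all genes tested in this group, 1.28% were higher and 12.3% lower in lesion, with a median log2 ratio of -0.14 and -0.11.

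Gabrg3 in these neurons was 917 CPM in parenchyma and 1573 CPM in lesion of the library labelled control, with 863 and 1846 CPM in the Cxcl12-cKO one. The log2 ratios were 0.78 (0.71 to 0.85) and 1.10 (1.00 to 1.19), so both libraries had more Gabrg3 in lesion. Lesional nuclei of this group were mostly female, 68 female and 5 male in the library labelled control and 46 and 2 in the library labelled Cxcl12-cKO, and in female nuclei alone the log2 ratios were 0.90 and 1.07. Within the corticothalamic-like cluster of the finer resolution, without the layer 6b-like nuclei, the ratios were smaller, 0.55 (0.48 to 0.63) and 0.78 (0.69 to 0.87), and the first no longer passed 1.5-fold. The layer 6b-like cluster rose from 250.1 to 845 CPM in the library labelled control, from 10 lesional nuclei, and had no lesional nuclei in the other library.

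Lowering the minimum to 25 nuclei, a choice made after seeing the data, opened 5 neuron groups and 35 pairs of gene and group, of which 3 passed 1.5-fold in both libraries. Upper-layer-like neurons had Gabrg3 at 557 CPM in parenchyma and 854 CPM in lesion of the library labelled control, with 494 and 847 CPM in the Cxcl12-cKO one (log2 0.62 and 0.78). Pvalb and Sst interneuron-like nuclei had less Gabra5 in lesion, 22.9 against 4.1 CPM and 23 against 11.8 CPM, with wide intervals of -4.79 to -0.88 and -2.45 to 0.20 on the log2 scale. The third pair was Gabrg3 in the layer 6 group.

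Some genes had 1 direction over the 5 groups. All of these groups come from the same 2 libraries, and the share of all genes with 1 direction over them was not computed. Gabra4 was higher in lesion in 5 of 5 groups in both libraries, by 0.18 to 0.55 and 0.36 to 0.70 on the log2 scale, with intervals that left out 0 in 4 groups of the library labelled control and 5 of the other. Within the Pvalb and Sst group, the Pvalb-led cluster went from 163 to 214 CPM and from 175 to 216 CPM. The Sst-led cluster went from 72.6 to 116 CPM in the library labelled control. In the other library it went from 67 to 36.7 CPM, the latter from 5 UMIs. Gabrb2 was higher in 5 of 5, by 0.24 to 0.33 and 0.08 to 0.30, and the intervals left out 0 in 5 and 2 groups. The Sst-led cluster, with 19 and 16 lesional nuclei, went the other way. Its Gabrb2 went from 300.4 CPM in parenchyma to 181 CPM in lesion, and from 237 to 95.5 CPM in the Cxcl12-cKO library. In the Pvalb-led cluster Gabrb2 went from 597 to 777 CPM and from 593 to 588 CPM. Gabra5 was lower in 5 of 5, though in no group did the intervals of both libraries leave out 0, and over all cortical interneurons it was lower in lesion in the library labelled control (-0.79, -1.53 to -0.18) but at 0.52 (-0.13 to 1.08) in the other. Gabrg3 was higher in 4 of 5, the exception being middle-layer-like neurons at -0.46 and -0.06. In the Pvalb-led cluster Gabrg3 went from 2652 to 3468 CPM and from 2663 to 3577 CPM. In the Sst-led cluster it went from 951 to 1039 CPM and from 635 to 463 CPM. Gabra2, Gabra3 and Gabrb1 had no direction shared by all 5 groups. Lesional nuclei were shallower than parenchymal nuclei of the same group in each of these comparisons. The part of depth, of the makeup of finer clusters and of the position of the surviving nuclei in these differences was not tested.

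**Figure D4:**
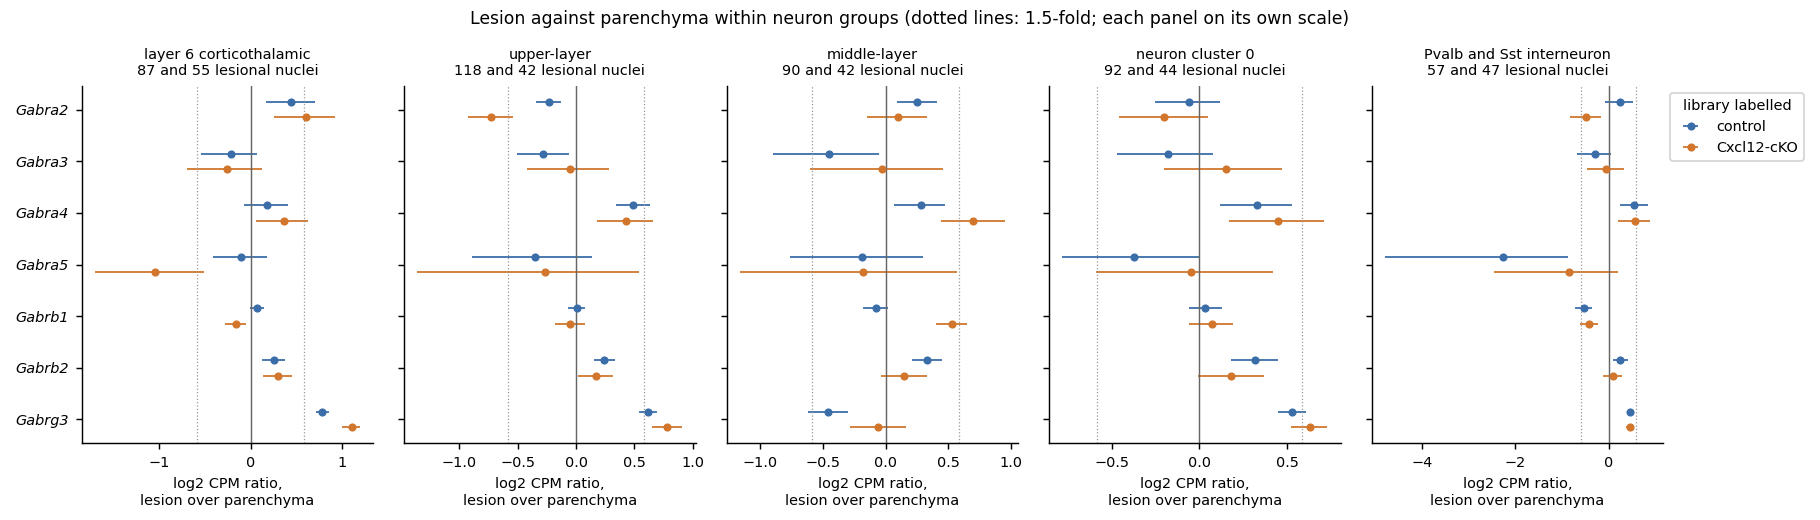
Log2 ratio of CPM in lesion over parenchyma (x axis, each panel on its own scale) for the 7 genes in 5 neuron groups, 1 point per library with its 95% counting interval; dotted lines mark 1.5-fold. Gabrg3 lies right of 0 in 4 panels, up to 1.10, and left of it in middle-layer-like neurons, and Gabra4 and Gabrb2 lie right of 0 in all 5.

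Summed over broader classes, all excitatory neurons had 0 of 7 genes past 1.5-fold in both libraries, where 0.891% of all genes were higher and 18.2% lower. Gabrg3 went from 711 CPM in parenchyma to 1048 CPM in lesion in the library labelled control (0.56, 0.52 to 0.60) and from 642 to 1199 CPM in the library labelled Cxcl12-cKO (0.90, 0.85 to 0.95), so it passed in the second alone. When parenchymal clusters were weighted as in lesion, the Gabrg3 ratios were 0.51 and 0.71. The ratio was 0.75 and 1.00 in female nuclei and 0.18 and 0.28 in male nuclei. All cortical interneurons likewise had 0 of 7 genes past the fold in both libraries, against 1.2% higher and 11.8% lower over all genes. Their Gabrg3 ratios were 0.47 and 0.63, their Gabra4 ratios 0.46 and 0.50, and their Gabrb1 ratios -0.30 and -0.58.

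The libraries were compared within each class and region to ask where the subunits differed with the label. Of 93 pairs of gene and class with enough nuclei and UMIs, 6 differed by more than 1.5-fold. In parenchymal neurons these were 2 of 77 higher and 1 of 77 lower in the library labelled Cxcl12-cKO, where 2.62% and 2.68% of all gene and group pairs did so. In lesional layer 6 corticothalamic-like neurons 0 of 7 were higher and 1 of 7 lower, against 4.16% and 6.75%, and in lesional glia 0 of 9 were higher and 2 of 9 lower, against 5.38% and 5.46%. The parenchymal share is thus near that of all genes. No replicate check exists, and the Cxcl12 level did not follow the label.

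Gabra2 in parenchymal near-projecting-like neurons went from 199 CPM with the control label to 335 CPM with the Cxcl12-cKO label (log2 0.75, 0.49 to 1.02). Both female nuclei (0.51) and male nuclei (0.81) had this direction. With the makeup of clusters 2 and 8 held, the ratio was 0.01. Cluster 2, the Gabra2-high cluster, had 13 of 75 nuclei of the group in the library labelled control and 21 of 69 in the other library.

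Gabra2 in Pvalb and Sst interneuron-like nuclei was 147 and 227 CPM (0.62, 0.46 to 0.78), with 0.88 in female and 0.10 in male nuclei. Held to the makeup of the 3 finer clusters it was 0.33, and the Nos1-led cluster had 40 and 75 nuclei. Gabra5 in neuron cluster 13 was 41.6 and 23.7 CPM (-0.81, -1.21 to -0.42), with -1.30 in female nuclei and -0.34 in male nuclei, whose interval of -0.98 to 0.28 included 0.

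In lesion, Gabra5 in layer 6 corticothalamic-like neurons was 91.8 and 41.4 CPM (-1.13, -1.82 to -0.52), with too few male nuclei for a separate value. The library labelled control held 10 layer 6b-like nuclei among these and the other library 0, and without them the levels were 74.2 and 41.4 CPM. Gabra2 in astrocyte-like nuclei was 116 and 57.2 CPM (-1.02, -1.37 to -0.68), with -0.64 in female and -2.50 in male nuclei, and -0.28 with the makeup of the 3 astrocyte clusters held. Gabrg3 in oligodendrocyte-like nuclei was 180.2 and 114 CPM (-0.66, -1.18 to -0.16), with -0.36 in female nuclei and 1.33 in male nuclei, the latter from 7 and 19 UMIs, and 0.01 once nuclei with UMIs of both sexes were removed.

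Short of the fold, Gabrg3 was lower in the library labelled Cxcl12-cKO in 10 of 11 parenchymal neuron groups, with a median log2 ratio of -0.14 and a range of -0.48 to 0.01. All 11 groups come from the same 2 libraries, and the share of all genes lower in 10 of 11 was not computed. Female and male mice, 1 of each, are all that stands behind each side. The other 6 genes were split, from 4 to 8 groups higher of 11, with medians between -0.07 and 0.11.

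**Figure D5:**
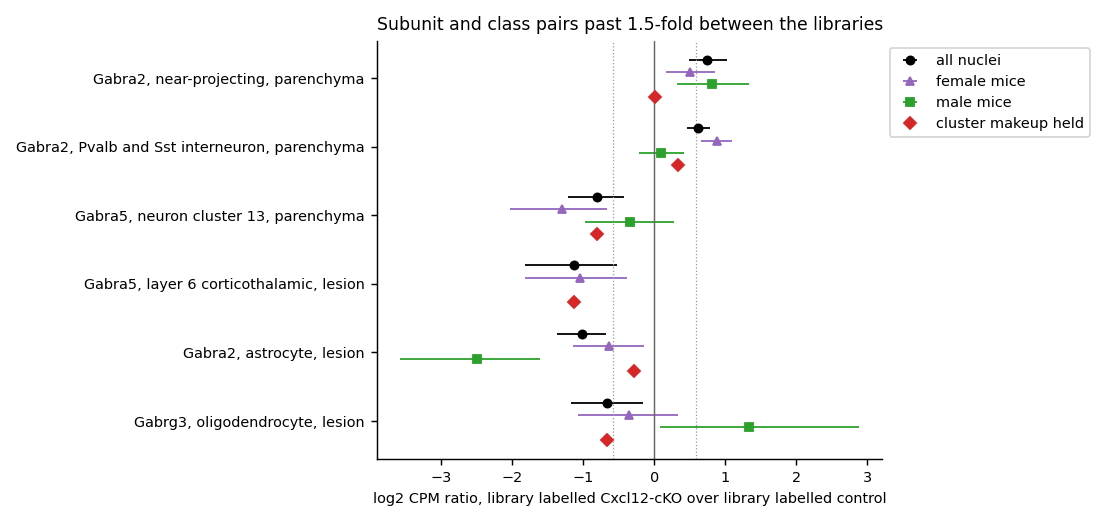
Log2 ratio of CPM, library labelled Cxcl12-cKO over library labelled control (x axis), for the 6 pairs of gene and class past 1.5-fold, in all, female and male nuclei with 95% counting intervals, and with cluster makeup held (diamonds, no interval); dotted lines mark 1.5-fold and male nuclei of the layer 6 group were too few. The held values of the 3 Gabra2 pairs are 0.01, 0.33 and -0.28, all inside the dotted lines.

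Likeness was measured as the Pearson correlation of log2(CPM + 1) over 44 groups of class, region and library, which share libraries and depth, among 16117 genes. It is given as a description. The genes most like Gabra2 were Gabra4 (0.935), Fstl4 (0.934) and Tspoap1 (0.929), and those most like Gabra4 were Myt1l and Fgf14 (0.959 each) and Mtcl1 (0.951). Gabra3 was most like Trnp1 (0.878), Prrg3 (0.868) and Slc7a14 (0.856), and Gabra5 most like Grm8 (0.920), Gm44644 (0.902) and Pcsk1 (0.897). Gabrb1 was most like 3110039M20Rik (0.926), the neurotrophin receptor gene Ntrk2 (0.923) and the adhesion gene Nrcam (0.920). Gabrb2 was most like Snhg14 (0.979), the NMDA receptor gene Grin1 (0.976) and Rimbp2 (0.975), and Gabrg3 most like Myt1l (0.941), Snhg14 (0.935) and Usp29 (0.933). Among the 7 genes themselves, the 21 pairwise values were 0.34 to 0.93 over the 44 groups but -0.40 to 0.56 over the 28 neuron groups. Gabra2 and Gabra4 went from 0.93 to 0.23, and Gabrb1 and Gabra5 had the highest value within neurons, 0.56. The pair with printed sequences, Gabrb1 and Gabra4, went from 0.86 over all groups to -0.02 within neurons.

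Other genes of the pathway were taken from fixed lists of 12 other GABA-A subunits, 8 genes of GABA synthesis, packing, uptake and breakdown, 16 of receptor anchoring and trafficking, 5 of the GABA-B receptor and 4 of chloride transport. In parenchymal excitatory neurons and interneurons, 0 genes of the 5 lists passed 1.5-fold between the libraries. In lesional astrocyte-like nuclei 6 genes passed it. The library labelled Cxcl12-cKO was lower for 2 of 2 other subunits with enough UMIs, for the GABA transporter gene Slc6a11 (-0.60) and for the GABA-B receptor genes Gabbr2 (-0.70, -1.51 to 0.08) and Kctd8 (-0.81). It was higher for Plcl1 (0.66), which encodes a binding partner of GABA-A receptors. In lesional glia 5.46% of all gene and class pairs were lower and 5.38% higher. The libraries filled the astrocyte clusters unequally, and with that makeup held, a choice made after seeing the data, 0 of the 6 genes passed the fold. Plcl1 was then at 0.41 and Kctd8 at -0.40. In oligodendrocyte precursor-like nuclei, Abat, a GABA breakdown gene, was lower (-0.86) and Kctd16 was higher (0.76).

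Between regions, in both libraries, Gabarapl2, an ATG8-family gene related to the receptor-associated protein gene Gabarap, was lower in lesion in excitatory neurons (-1.43 in the library labelled Cxcl12-cKO and further below 0 in the other), in layer 6 corticothalamic-like neurons (-1.48 and -1.11) and in interneurons (-1.69 and -1.84). Gabarapl1 was lower in excitatory neurons (-0.60 and -0.81), so 2 of 16 anchoring and trafficking genes were lower there and 0 higher, against 18.2% and 0.891% of all genes. In the layer 6 group 1 of 16 was lower, against 12.3%. The GABA-B auxiliary gene Kctd8 was higher in excitatory neurons (0.84 and 0.62) and Kctd16 in layer 6 corticothalamic-like neurons (1.07 and 1.25). In interneurons, Slc32a1, the vesicular GABA transporter gene, was lower (-1.60 and -0.98), as was the chloride channel gene Clcn2 (-1.69 and -1.43), which makes 1 of 7 and 1 of 4 genes of their lists where 11.8% of all genes were lower. In both excitatory neurons and interneurons, 0 of the other GABA-A subunits passed the fold.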

How the data were processed

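The submitters' processing notes name Cell Ranger 9.0.0 and GRCm39. Whether intronic reads were counted is not stated there or in the methods. The authors deposited raw UMI counts per gene and barcode, in 4 matrices split by library and region from the multiplexing tags (Chromium 3′ v3.1). Tag libraries were not used as measurements. The extreme 2.5% of barcodes at either end of UMIs and of genes, and the top 2.5% of mitochondrial share, were removed, leaving 21743 of 23489 with 758 to 36243 UMIs. Counts were scaled to 10000 per nucleus and logged, and 3000 variable genes, 30 components and 20 neighbours were clustered (Leiden, resolution 0.25; scanpy 1.11.5, Python 3.11.15), without the GABA-A receptor, Cxcl12, Cxcr4, Ackr3, Xist, Tsix, Y-linked and mitochondrial genes. Neurons and glia were clustered again. A cluster was named from listed markers when 3 or more were raised and their mean log2 ratio was at least 0.5, and called mixed when 30% or more of its nuclei held UMIs of both sexes. These thresholds were set after the clusters were seen. Scrublet marked 2, 0, 18 and 1 barcodes, under 0.5% of each matrix, so it had not worked and none were removed by it.

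UMIs were summed per class, region and library and given as CPM with exact Poisson intervals. Log2 ratios had 0.5 added to each sum and exact conditional binomial intervals (scipy 1.17.1). A ratio was used with at least 50 nuclei in each group and 50 UMIs over both groups together, and counted past 1.5-fold. Nuclei were given to the female or male mouse by Xist and Y-linked genes. With 1 library per genotype, nuclei were not treated as replicates and no p-value was computed. All 7 genes are given in every class. Full values are given where a ratio passed 1.5-fold with an interval that left out 0, and for the ends of each order. For likeness, the 3 genes with the highest correlation were named. The members and gene lists were chosen with earlier results of these data known. Promoter windows came from RefSeq (GRCm38.p6). Alternatives covered scaling, barcode filters, resolution, naming, variable genes, doublets, mouse, depth, minimum counts and fold. The code was tested on simulated data.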

Additional observations from a re-analysis of the deposited data

Results flagged for a closer look

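Of 128 pairs of gene and class, broad classes included, 55 had opposite signs of the library difference in female and male nuclei, and in 3 of them both counting intervals also left out 0 (log2 ratio with the library labelled control as the denominator, from 1 mouse of each sex per library), and the difference between the sexes was not tested. Gabrb1 in parenchymal neuron cluster 13 was at -0.24 in female nuclei and 0.18 in male nuclei. Gabrb1 in lesional oligodendrocyte-like nuclei was at -1.59 in female nuclei and 2.10 in male nuclei, where all 68 male UMIs of the library labelled Cxcl12-cKO lay in 2 nuclei and 98.2% of the 55 female UMIs of the other library lay in 5. Gabra2 in lesional myeloid-like nuclei was at 0.70 in female nuclei and -0.85 in male nuclei, whereas over all nuclei the libraries had 15.3 and 15.7 CPM.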

How the results depend on the processing

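The count of 1 of 7 lesion-to-parenchyma pairs past 1.5-fold became 0 at Leiden resolution 0.5 (of 7 pairs), 0 with subtypes named by marker score (of 21), 0 with 2000 variable genes (of 14) and 0 at 2-fold. Of the alternatives chosen after seeing the data, it became 3 of 35 with a minimum of 25 nuclei and 0 of 14 for 2 broad neuron classes, both with and without cluster makeup held. With nuclei of both sexes removed, or female or male nuclei alone, no pair had enough nuclei. The count of 6 of 93 pairs past 1.5-fold between the libraries became 3 with the mean of per-nucleus CPM, 3 of 78 with all barcodes kept, 3 of 79 with GABA-A receptor genes in the clustering, 1 of 46 in male nuclei alone, 13 of 105 with no minimum of UMIs and 2 at 2-fold. Under the other alternatives, including held cluster makeup (4, also chosen after seeing the data), it was 4 to 9. Doublet candidates were the top 10% by Scrublet score, and since Scrublet had not worked, leaving them out does not check for doublets. The neuron group with the highest level stayed the same for 7 of 7 genes without doublet candidates or without nuclei of both sexes, but for 4 with all barcodes kept, 3 by marker score, 3 with 2000 variable genes, 3 with GABA-A receptor genes in the clustering, 3 in female nuclei and 2 in male nuclei. Gabra3, Gabrb1 and Gabrg3, led by near-projecting-like neurons, were among the genes that changed in all 6 of these, and with all barcodes kept (39 nuclei in 1 library), GABA-A receptor genes in the clustering (48) and female nuclei alone (38) that group was under the minimum of 50. Of 105 single ratios recomputed, 83 stayed inside the counting interval of the reported ratio, 21 left it and 1 reversed: Gabrg3 in lesional oligodendrocyte-like nuclei, from -0.66 to 0.01 without nuclei of both sexes. Of 138 recomputed levels, 54 left their interval. Gabra2 held the most alpha UMIs, unscaled for length, in 10 of 11 groups in the main grouping and in 8 of 9 to 10 of 12 otherwise. The causes of the other changes were not tested. No paired analysis was possible because each genotype has 1 library.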
